A study of Mus musculus with 12 samples.

Results

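Interferon-induced effector genes encode the proteins with which a cell restricts viruses and intracellular parasites after it has sensed interferon. The levels of 45 such genes, taken by symbol and found by their Ensembl identifiers among the 55487 genes of the count table, were compared in bone marrow-derived mesenchymal stromal cells (MSCs). They comprised 4 IFIT, 4 OAS, 3 IFITM and 2 MX genes, 6 guanylate-binding (GBP) or immunity-related GTPase (IRG) genes, 3 genes of the PARP group (Parp9, Parp14 and Dtx3l), 3 genes of the ISG15 system, and 20 others.

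RNA was sequenced from primary wild-type C57BL/6 mouse MSCs in 3 groups of 4 samples. Control MSCs received medium alone, A1-treated MSCs received 50 μM A1 for 6 h, and A1 + OVA-treated MSCs received 50 μM A1 with 1 mg/ml chicken ovalbumin (OVA) for 6 h. A1 is cholic acid, a bile acid, joined to a nuclear localization peptide of hnRNPA1, and the study used it to make MSCs cross-present a protein antigen to CD8 T cells. The comparisons asked how A1, with or without the antigen, altered the transcriptome. The donors were female mice 6 to 8 weeks old, the cells had been expanded to passage 9 or 10, and the labels also name insulin in the medium of the A1 + OVA group without giving its dose. No samples treated with OVA alone were analysed here. It is not stated whether the 4 samples of a group were separate cultures or donors, so p-values measure only the spread between these samples, which may be technical.

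Interferons bind their receptors and activate the kinases JAK1, TYK2 and JAK2. These phosphorylate transcription factors such as STAT2, which acts with IRF9 at the interferon-stimulated response element (ISRE), while interferon gamma acts through the gamma-activated site (GAS). Fibroblast-like cells such as MSCs hold many of the target genes at a low tonic level in the absence of infection, and MSCs are known to raise them strongly when interferon is added.

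The promoter is where these factors act, so the sequences of 6 genes on which the results turn are shown with the motif matches in capitals. Ifit1, Ifit3, Gbp2 and Igtp were lower in both treated groups, Irgm1 was higher in both, and Isg15 was the gene with the most ISRE matches in its window. Each window covers 250 bases before and 50 bases after the annotated start of the gene, 5′ to 3′ on the strand of the gene, in the RefSeq annotation of GRCm38.p6. The letters searched were GAAA, any 2 bases and GAAA for the ISRE core, which reads TTTC, any 2 bases and TTTC on the other strand, and TTCNNNGAA for the GAS core, which is the same pattern on both strands. Overlapping matches were allowed.
Ifit1 promoter, chr19:34640639-34640938, + strand: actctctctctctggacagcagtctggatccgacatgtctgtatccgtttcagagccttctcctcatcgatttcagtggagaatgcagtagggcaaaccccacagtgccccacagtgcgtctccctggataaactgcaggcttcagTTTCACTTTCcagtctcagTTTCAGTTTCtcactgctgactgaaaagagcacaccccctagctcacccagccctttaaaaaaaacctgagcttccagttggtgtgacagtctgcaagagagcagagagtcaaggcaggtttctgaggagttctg
Ifit3 promoter, chr19:34583279-34583578, + strand: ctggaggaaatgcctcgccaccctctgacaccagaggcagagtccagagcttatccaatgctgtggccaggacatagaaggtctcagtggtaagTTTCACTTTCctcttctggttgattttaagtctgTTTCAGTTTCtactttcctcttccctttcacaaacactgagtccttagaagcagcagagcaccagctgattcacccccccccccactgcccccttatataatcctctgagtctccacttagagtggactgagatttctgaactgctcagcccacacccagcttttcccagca
Gbp2 promoter, chr3:142620413-142620712, + strand: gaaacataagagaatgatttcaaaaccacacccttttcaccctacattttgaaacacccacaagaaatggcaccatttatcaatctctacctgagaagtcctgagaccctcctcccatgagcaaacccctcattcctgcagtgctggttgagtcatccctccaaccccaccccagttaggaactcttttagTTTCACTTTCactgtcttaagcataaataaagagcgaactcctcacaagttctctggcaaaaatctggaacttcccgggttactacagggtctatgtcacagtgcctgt
Igtp promoter, chr11:58199306-58199605, + strand: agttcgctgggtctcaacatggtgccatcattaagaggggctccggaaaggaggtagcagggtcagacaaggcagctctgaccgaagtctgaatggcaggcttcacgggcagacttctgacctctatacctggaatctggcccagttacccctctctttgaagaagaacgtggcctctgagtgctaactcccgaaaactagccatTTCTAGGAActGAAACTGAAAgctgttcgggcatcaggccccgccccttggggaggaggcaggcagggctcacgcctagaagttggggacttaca
Irgm1 promoter, chr11:48871371-48871670, - strand: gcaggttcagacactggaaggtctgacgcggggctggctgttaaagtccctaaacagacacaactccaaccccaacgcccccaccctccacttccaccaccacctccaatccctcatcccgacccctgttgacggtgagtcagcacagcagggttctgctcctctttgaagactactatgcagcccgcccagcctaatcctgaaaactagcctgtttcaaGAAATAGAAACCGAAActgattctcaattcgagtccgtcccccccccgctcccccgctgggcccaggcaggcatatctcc
Isg15 promoter, chr4:156200769-156201068, - strand: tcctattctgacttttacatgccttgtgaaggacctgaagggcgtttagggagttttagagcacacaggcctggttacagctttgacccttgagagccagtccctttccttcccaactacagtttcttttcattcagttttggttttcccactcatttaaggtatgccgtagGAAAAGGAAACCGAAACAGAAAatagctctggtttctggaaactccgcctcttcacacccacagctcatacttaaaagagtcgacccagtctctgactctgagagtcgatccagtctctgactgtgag

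In these windows, with the start counted as 1 and the base before it as -1, Ifit1 carried ISRE cores at -104 to -95 and at -85 to -76, and Ifit3 at -156 to -147 and at -122 to -113. Gbp2 had 1 core at -59 to -50. In Igtp a GAS core at -45 to -37 stood just before an ISRE core at -34 to -25. Irgm1 held overlapping ISRE cores at -30 to -21 and -24 to -15, and Isg15 held 3 overlapping ones between -78 and -57. The RefSeq starts used here can differ from those of the Ensembl genes whose reads were counted. The whole Irgm1 window lies inside its Ensembl gene, at chr11:48861968-48871683. A window was found for 33 of the 45 genes. An ISRE core was present in 18 of them (54.5%), against 3.99% of the 27025 mouse genes with a window, and a GAS core in 9 (27.3%), against 9.55%. Both were present in 6 genes, and neither in 12. The matches describe these letters in this window and are not evidence of binding.

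The samples held between 13702348 and 16881995 counts, with 13702348 to 14347870 in the A1-treated samples. Levels are given in CPM, the usual library-scaled count of a gene, here over the tested genes, or, between genes, as CPM per kilobase of exon (RPKM). Differences were tested with edgeR's quasi-likelihood test, with Benjamini-Hochberg adjustment over the 11314 protein-coding genes that passed the filter on low counts. Of the 11 MSC marker genes, 10 passed this filter. Thy1 had 0 to 17 counts and Nt5e had 7 to 14 counts per sample, so these markers (CD90 and CD73) were at or near 0. The summed level of the 11 markers was 12250 to 12960 CPM in control samples, 9169 to 9797 CPM with A1 and 9453 to 10050 CPM with A1 + OVA. With A1, 5 of the 10 tested markers were lower, 1 (Cd44) was higher and 4 were not called. With A1 + OVA, 6 were lower, 1 was higher and 3 were not called. Over all tested genes, 31.1% were lower and 31.7% higher with A1, and 27.9% and 29.7% with A1 + OVA. Cxcl12, at a mean of 3910 CPM in control and 1514 CPM with A1, made up most of the drop in the sum with A1. The 10 leukocyte markers summed to 9.53 to 10.5 CPM in control samples, 12.1 to 15.0 CPM with A1 and 10.7 to 13.3 CPM with A1 + OVA, of which Cd14 made up most. Cd14 had 120 to 173 counts a sample and was higher with A1 (log2 fold change 0.57, edgeR adjusted p = 9.29e-06) and with A1 + OVA (log2 fold change 0.29, edgeR adjusted p = 0.00996). Tyrobp and C1qa were at 0 throughout and Ptprc was at 0 to 4 counts. The part of these markers in the results was not tested. In bulk samples, fewer cells that express a gene and less RNA of that gene per cell cannot be told apart.

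The 45 genes spanned the range from abundant to undetectable, and the IFIT, IFITM, GBP/IRG and OAS families each held both measured and scarce or undetectable genes. Of the 45, 32 passed the filter. Another 5 were not detectable, with at most 3 counts in every sample, namely Oas1a, Oas2, Oas3, Mx1 and Mx2. A further 8 were scarce and failed the filter: Ifit3b, Ifitm1, Gbp7, Iigp1, Rsad2, Cmpk2, Zbp1 and Ifi44. Of the 32 that passed, 10 stayed under 1 RPKM in the mean of all 3 groups (Oasl2, Gbp3, Igtp, Parp14, Usp18, Herc6, Ifi203, Trim21, Xaf1 and Sp100), and 22 were above it in at least 1 group.

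Ifitm3 led all of them, with 207 ± 12.1 RPKM in control MSCs (SD, n = 4), 185 ± 5.98 RPKM with A1 and 184 ± 10.4 RPKM with A1 + OVA. The next in order of the mean over 12 samples were Ifitm2 at 49.1 RPKM, Lgals3bp at 32.9 RPKM, Ifi204 at 28.5 RPKM, Eif2ak2 at 18.7 RPKM and Samd9l at 13.2 RPKM. For comparison, the median tested gene was at 7.53 RPKM. Ifit2 at 9.74 RPKM lay above that median. The remaining genes lay below it, from Irgm1 at 7.05 RPKM down to Oas3 at 0.0023 RPKM.

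**Figure D1:**
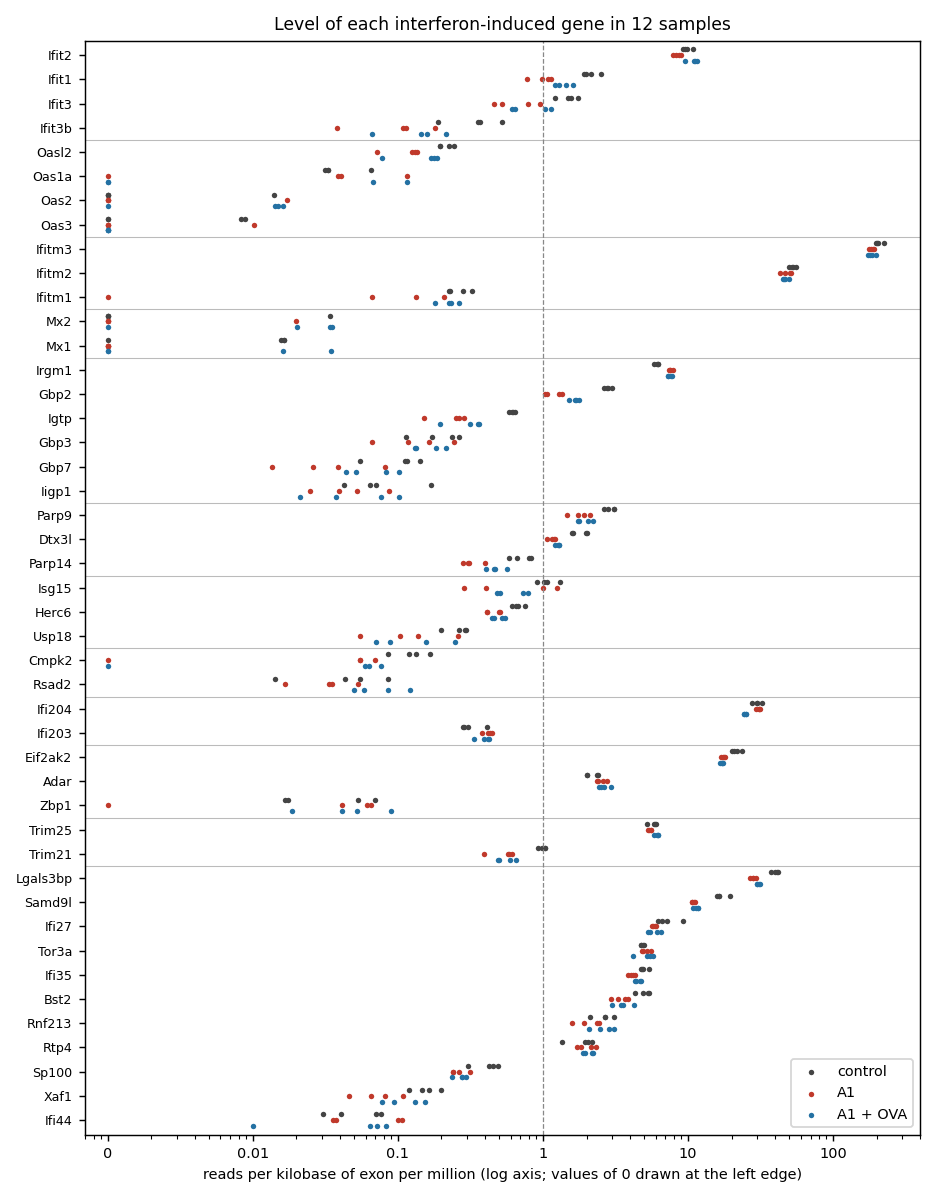
The level of each of the 45 genes in each of the 12 samples, in CPM per kilobase of exon (RPKM) on a log axis, grouped by family, with control samples in grey, A1 in red and A1 + OVA in blue; values of 0 are drawn at the left edge and the dashed line marks 1 RPKM. Ifitm3 sits far to the right of the other genes, and Ifitm2 lies next to Lgals3bp and Ifi204. Oas2, Oas3, Mx1 and Mx2 lie toward the left edge in all 3 groups, with many values of 0, while Oasl2 lies further to the right.

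With A1, most of the measured genes fell. Of the 32, 22 were lower and 3 were higher than in control MSCs, and 7 passed in neither direction. Among all tested genes, 31.1% were lower and 31.7% were higher. The lowest log2 fold changes were those of Igtp, Gbp2, Parp14, Ifit3 and Ifit1. The median over the 32 was -0.52 on the log2 scale, against 0.00 for all tested genes. When a log2 change of 0.5 or more in size was required as well, 15 were lower and 0 higher, beside 11.6% and 9.41% of all tested genes. Igtp and Xaf1, among these 15, passed the filter only because of their counts in control samples. The 3 called higher were Irgm1, Ifi203 and Adar. In 19 genes every A1-treated sample lay below every control sample, as in 26.4% of all tested genes, and in Irgm1 every one lay above, as in 28% of all tested genes.

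With A1 + OVA, 18 of the 32 were lower, 2 were higher (Irgm1 and Adar) and 12 passed in neither direction, where 27.9% of all tested genes were lower and 29.7% were higher. The median log2 fold change was -0.42, again against 0.00 for all tested genes. Those past the second condition were 10 lower and 0 higher, beside 8.79% and 8.92% of all tested genes. In 19 genes all A1 + OVA-treated samples lay below all control samples (24% of all tested genes) and in 2 above them (25.4%). Both comparisons share the same 4 control samples. In each, 5 of the 32 (Gbp3, Igtp, Isg15, Usp18 and Xaf1) passed the filter only because of their counts in control samples. Without these 5, 20 of 27 were lower and 3 higher with A1, and 17 of 27 were lower and 2 higher with A1 + OVA.

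**Figure D2:**
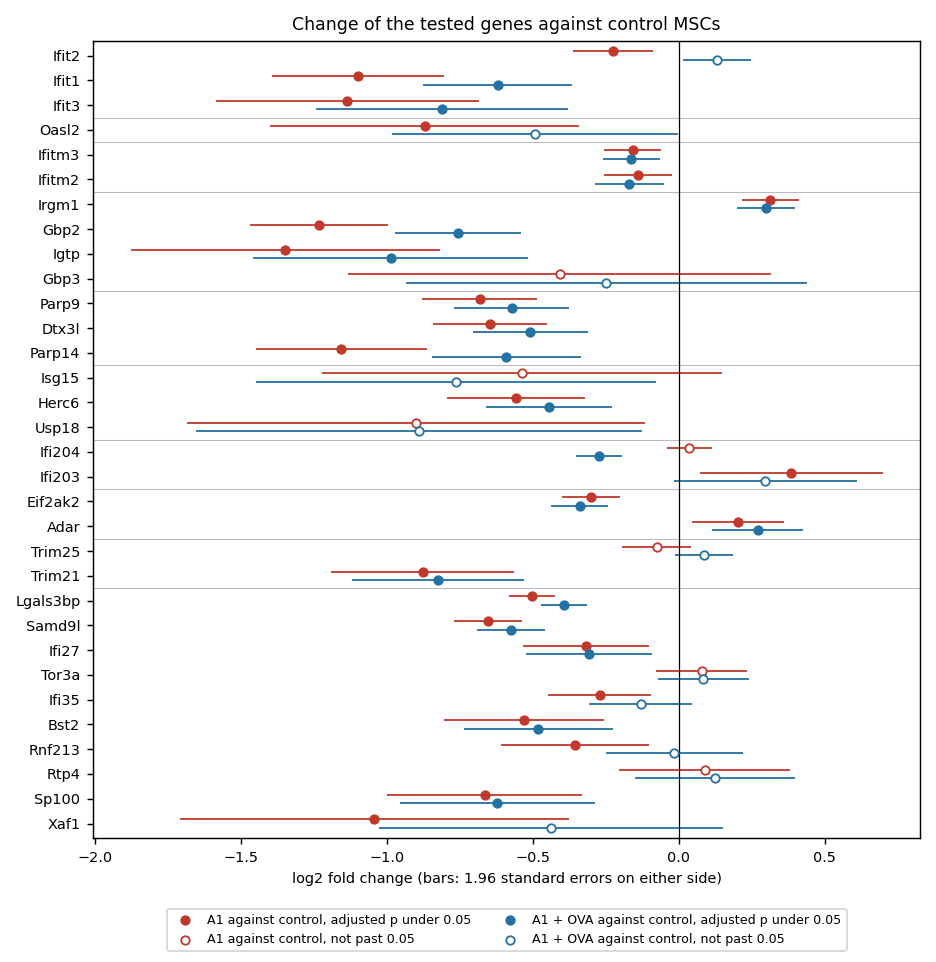
Log2 fold change of the 32 tested genes against control MSCs, grouped by family, for A1 (red) and A1 + OVA (blue). Bars are approximate 95% intervals of the fit, and filled points have an adjusted p under 0.05. The points of the PARP group and of Trim21, Samd9l and Lgals3bp lie to the left of 0 in both treatments, and Irgm1 and Adar lie to the right of it.

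IFIT proteins recognise foreign RNA and restrict its translation. Their genes lie side by side on chromosome 19, and 3 of the 4 passed the filter. All 3 were lower with A1, by very unequal amounts, and 2 of the 3 were lower with A1 + OVA. The median log2 fold changes were -1.10 and -0.62. Beside them, 31.1% of all tested genes were lower with A1 and 27.9% with A1 + OVA.

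The samples of a group are listed by replicate number here and in the rest of the text, an order without meaning. Ifit1 (ENSMUSG00000034459, chr19:34640871-34650009, + strand) was at 5.14, 6.68, 5.69 and 5.27 CPM in the control samples, 3.04, 2.06, 2.90 and 2.61 CPM in the A1-treated samples and 3.84, 3.42, 3.24 and 4.31 CPM in the A1 + OVA-treated samples. The treated samples lay below all control samples, and the A1 + OVA-treated samples lay above all samples with A1 alone. The level fell by 53.3% with A1 (log2 fold change -1.10, SE 0.15, edgeR adjusted p = 1.12e-06) and fell by 35.0% with A1 + OVA (log2 fold change -0.62, SE 0.13, edgeR adjusted p = 0.000377).

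Ifit3 (ENSMUSG00000074896, chr19:34583531-34588731, + strand) was at 2.72, 2.60, 3.03 and 2.13 CPM in the control samples, 1.66, 0.916, 1.37 and 0.799 CPM in the A1-treated samples and 1.81, 1.08, 1.12 and 1.97 CPM in the A1 + OVA-treated samples. These groups were also separate from control, whereas the treated groups overlapped each other. The change was of similar size to that of Ifit1 with A1 (log2 fold change -1.14, SE 0.23, edgeR adjusted p = 0.000258) and with A1 + OVA (log2 fold change -0.81, SE 0.22, edgeR adjusted p = 0.00291). Of the 100-base stretches in the exons of Ifit3, 31.7% also occur in Ifit3b, so reads of these genes may have been divided or dropped by the counting.

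Ifit2 (ENSMUSG00000045932, chr19:34550694-34576419, + strand) held 79.9% to 91.6% of the summed CPM of the family. It was at 36.1, 42.7, 38.9 and 37.7 CPM in the control samples, 31.0, 35.0, 34.3 and 32.7 CPM in the A1-treated samples and 43.8, 43.5, 45.6 and 37.5 CPM in the A1 + OVA-treated samples. The A1-treated samples lay just below the control samples, while those with A1 + OVA overlapped them. Ifit2 thus fell modestly with A1 (log2 fold change -0.23, SE 0.07, edgeR adjusted p = 0.00566) and did not pass the test with A1 + OVA (log2 fold change 0.13, SE 0.06, edgeR adjusted p = 0.0869). The approximate 95% interval with A1 + OVA was 0.01 to 0.26, although the unadjusted edgeR p was 0.0542. Ifit2 was called higher with A1 + OVA without control replicate 2 or A1 + OVA replicate 4 (log2 fold change 0.18 to 0.19). None of its 100-base stretches occurs in another gene.

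As Ifit2 made up most of it, the summed level of the IFIT genes changed less than the median gene of the family. The sum was 77.9% of the control mean with A1, with no overlap between the groups, and 100.4% with A1 + OVA. Ifit3b was scarce, with 12, 12, 17 and 6 counts in the control samples, 3, 3, 1 and 5 in the A1-treated samples and 4, 5, 2 and 7 in the A1 + OVA-treated samples. The highest A1 + OVA-treated sample overlapped the lowest control sample, and the gene failed the filter.

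**Figure D3:**
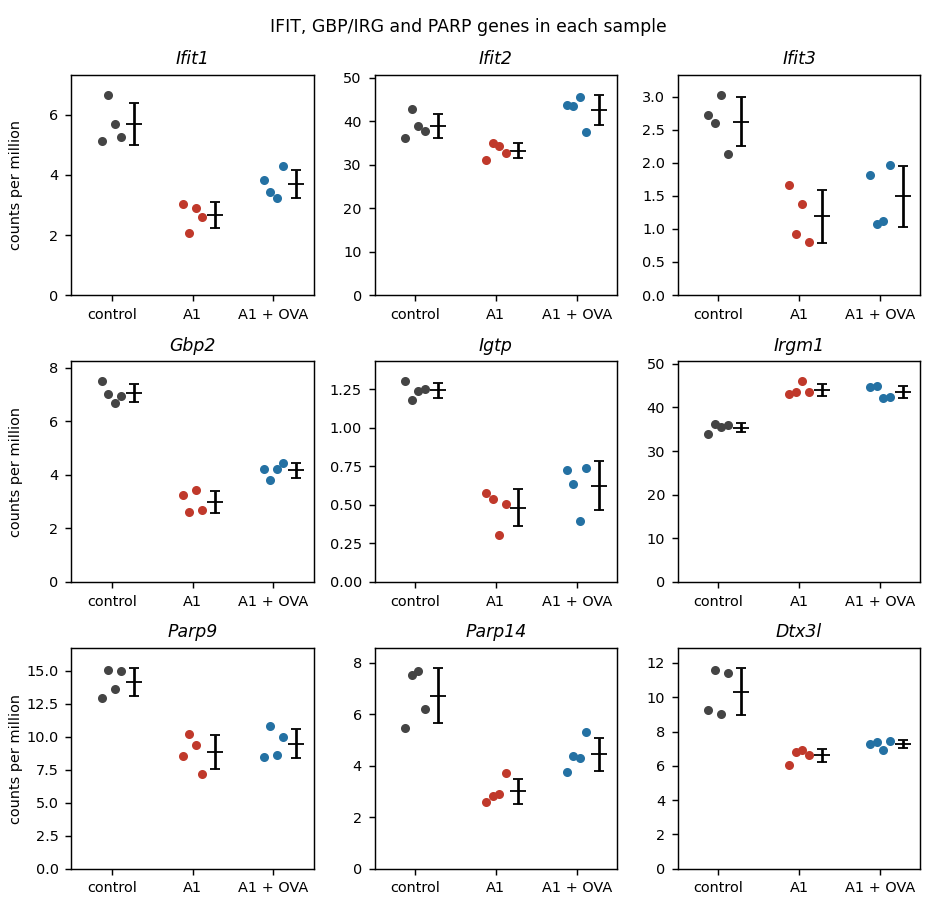
The level in CPM of 9 IFIT, GBP/IRG and PARP genes in each sample, each panel on its own axis from 0, with the mean and SD of the 4 samples of a group drawn beside the points. Gbp2 and Ifit1 are lowest with A1 and lie in between with A1 + OVA. Ifit2 with A1 + OVA lies within or above the range of the control samples, and the 8 treated samples of Irgm1 lie above all 4 control samples.

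OAS enzymes make oligoadenylates that activate RNase L, the nuclease that degrades RNA in infected cells. Of the 4 OAS genes on chromosome 5, only Oasl2, a relative with ubiquitin-like domains, was measured above the filter. Oas1a had 0 to 3 counts, and Oas2 and Oas3 had 0 to 1 count per sample, so a difference in them was not detectable at this depth. Oas1a also shares 40.9% of its exonic 100-base stretches with Oas1g, which had 0 to 1 count itself.

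Oasl2 (ENSMUSG00000029561, chr5:114896936-114912234, + strand) was at 1.24, 1.24, 1.55 and 1.44 CPM in the control samples, 0.868, 0.840, 0.458 and 0.799 CPM in the A1-treated samples and 1.09, 1.14, 1.19 and 0.493 CPM in the A1 + OVA-treated samples, from 6 to 25 counts a sample. All treated samples lay below the control samples, and 1 sample of each treated group (A1 replicate 3 and A1 + OVA replicate 4) lay well below its own group. The gene was lower with A1 (log2 fold change -0.87, SE 0.27, edgeR adjusted p = 0.00831) and did not pass the test with A1 + OVA (log2 fold change -0.49, SE 0.25, edgeR adjusted p = 0.094). Leaving out A1 replicate 3 gave a log2 fold change of -0.71, still with an adjusted p under 0.05, and leaving out A1 + OVA replicate 4 gave -0.26 for A1 + OVA.

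IFITM proteins sit in endosomal membranes and block the fusion of enveloped viruses. They were the most abundant family per length and among those that changed least. Ifitm3 (ENSMUSG00000025492, chr7:141009586-141010770, - strand) was at 152, 135, 138 and 135 CPM in the control samples, 127, 121, 130.2 and 124 CPM in the A1-treated samples and 118, 123, 125 and 135 CPM in the A1 + OVA-treated samples. The treated samples lay below the control samples, although the highest of them, with A1 + OVA, was just under the lowest control sample. The decrease was small but past the test with A1 (log2 fold change -0.16, SE 0.05, edgeR adjusted p = 0.0054) and with A1 + OVA (log2 fold change -0.16, SE 0.05, edgeR adjusted p = 0.00457).

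Ifitm2 (ENSMUSG00000060591, chr7:140954837-140955987, - strand) was at 36.5, 32.8, 34.3 and 34.7 CPM in the control samples, 33.6, 33.0, 28.4 and 30.4 CPM in the A1-treated samples and 29.7, 30.1, 30.4 and 32.4 CPM in the A1 + OVA-treated samples. The A1-treated samples overlapped the control samples, and those with A1 + OVA did not. It was lower by a like amount with A1 (log2 fold change -0.14, SE 0.06, edgeR adjusted p = 0.0459) and with A1 + OVA (log2 fold change -0.17, SE 0.06, edgeR adjusted p = 0.0172). The call with A1 was lost with DESeq2, with no filter on low counts, with only the 2 groups compared in the fit, and without control replicate 1, 3 or 4, A1 replicate 3 or 4 or A1 + OVA replicate 2 or 3 (log2 fold change -0.14 to -0.10), and that with A1 + OVA without control replicate 1 (log2 fold change -0.14). Ifitm1 was scarce, with 5, 6, 4 and 4 counts in the control samples, 1, 3, 0 and 2 in the A1-treated samples and 4, 4, 3 and 4 in the A1 + OVA-treated samples. Ifitm2 shares 34.9% of its exonic 100-base stretches with Gm45717, an overlapping annotation on the same strand, and with 2 further loci.

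The dynamin-like GTPases of the MX family, which trap viral nucleocapsids, were not detectable. Mx1 had 0 to 2 counts in any sample and Mx2 had 0 to 2 counts. Mx2 is annotated as a polymorphic pseudogene, which keeps it outside the protein-coding genes tested.

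GBP and IRG proteins are large and small GTPases that coat and disrupt the vacuoles of intracellular parasites and bacteria. Genes of this family were called in both directions. Of its 6 genes, 4 passed the filter, of which Gbp2 and Igtp were lower, Irgm1 was higher and Gbp3 passed in neither direction, with the same result for A1 and for A1 + OVA. However, Gbp3 and Igtp passed the filter only because of their counts in control samples. Without them, Gbp2 was lower and Irgm1 was higher. With A1, 31.1% of all tested genes were lower and 31.7% higher, and with A1 + OVA 27.9% and 29.7%.

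Gbp2 (ENSMUSG00000028270, chr3:142620602-142638008, + strand), a guanylate-binding protein of the chromosome 3 cluster, was at 7.49, 7.03, 6.68 and 6.96 CPM in the control samples, 3.25, 2.60, 3.44 and 2.69 CPM in the A1-treated samples and 4.20, 3.80, 4.23 and 4.44 CPM in the A1 + OVA-treated samples. The 3 groups did not overlap, with A1 lowest and A1 + OVA between it and control. The gene fell by 57.4% with A1 (log2 fold change -1.23, SE 0.12, edgeR adjusted p = 8.82e-09) and fell by 40.8% with A1 + OVA (log2 fold change -0.76, SE 0.11, edgeR adjusted p = 3.28e-06).

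Igtp (ENSMUSG00000078853, chr11:58199556-58207591, + strand), also known as Irgm3, a regulatory IRG protein of the endoplasmic reticulum, was at 1.30, 1.18, 1.24 and 1.25 CPM in the control samples, 0.579, 0.534, 0.305 and 0.508 CPM in the A1-treated samples and 0.725, 0.633, 0.396 and 0.740 CPM in the A1 + OVA-treated samples. Each control sample had 20 or 21 counts and each treated sample 4 to 12. The decrease was past the test with A1 (log2 fold change -1.35, SE 0.27, edgeR adjusted p = 0.000163) and with A1 + OVA (log2 fold change -0.99, SE 0.24, edgeR adjusted p = 0.00148). It was the lowest log2 fold change of the 32 genes in both comparisons. However, Igtp passed the filter only because of its counts in control samples, which limits what this rank shows. Igtp overlaps Irgm2 over 7974 bases on the same strand, and 5.16% of its exonic 100-base stretches occur there, so its reads could not always be assigned. Irgm2 itself was lower with A1 (log2 fold change -1.23, edgeR adjusted p = 0.000976) and with A1 + OVA (log2 fold change -0.91, edgeR adjusted p = 0.00615).

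Irgm1 (ENSMUSG00000046879, chr11:48861968-48871683, - strand), another regulatory IRG protein, went the other way. It was at 33.9, 36.2, 35.6 and 35.9 CPM in the control samples, 43.0, 43.5, 46.0 and 43.4 CPM in the A1-treated samples and 44.7, 44.8, 42.1 and 42.4 CPM in the A1 + OVA-treated samples. All 8 treated samples lay above all 4 control samples. The level was higher by 24.3% with A1 (log2 fold change 0.31, SE 0.05, edgeR adjusted p = 8.51e-06) and by 22.9% with A1 + OVA (log2 fold change 0.30, SE 0.05, edgeR adjusted p = 1.61e-05). The call at an adjusted p under 0.05 held without any 1 of the 12 samples and in each alternative fit that was run.

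Gbp3 had 3 to 14 counts per sample, and its interval was too wide to show a change (approximate 95% interval -1.14 to 0.32 with A1 and -0.93 to 0.44 with A1 + OVA). Gbp7 had 5, 11, 13 and 10 counts in the control samples, 3, 1, 6 and 2 in the A1-treated samples and 4, 9, 7 and 4 in the A1 + OVA-treated samples, and Iigp1 had 4, 7, 16 and 6 counts in the control samples, 7, 4, 3 and 2 in the A1-treated samples and 3, 7, 9 and 2 in the A1 + OVA-treated samples. Both were scarce. Irgm1 held 77.1% to 92.1% of the summed CPM of the GBP/IRG genes, so the sum rose to 106.7% and 109.2% of the control mean although Gbp2 and Igtp fell.

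**Figure D4:**
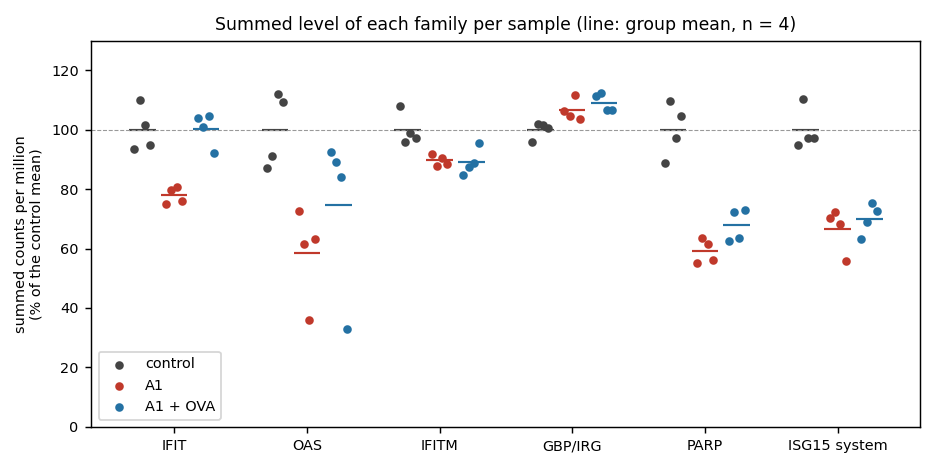
Summed CPM of the members of 6 families in each sample, as a percent of the control mean of that family (dots, samples; lines, group means of 4 samples). The PARP group and the ISG15 system sit well below 100 in both treatments, IFITM slightly below it, GBP/IRG slightly above it, IFIT is below it with A1 alone, and OAS (mostly Oasl2) is spread widely.

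PARP9 and the ubiquitin ligase DTX3L act as a complex in interferon signalling and DNA repair, and PARP14 is an ADP-ribosyltransferase. All 3 genes of this group lie within a short stretch of chromosome 16, and all 3 were lower with both treatments, with median log2 fold changes of -0.68 and -0.57. Lower calls were made in 31.1% of all tested genes with A1 and in 27.9% with A1 + OVA. The summed level of the 3 genes was 59.2% of the control mean with A1 and 67.9% with A1 + OVA, and neither treated group overlapped the control samples.

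Parp9 (ENSMUSG00000022906, chr16:35938470-35972605, + strand) was at 12.9, 15.1, 13.6 and 15.0 CPM in the control samples, 8.53, 10.2, 9.39 and 7.19 CPM in the A1-treated samples and 8.48, 10.8, 8.65 and 9.98 CPM in the A1 + OVA-treated samples. Dtx3l (ENSMUSG00000049502, chr16:35926511-35939151, - strand) was at 9.28, 11.6, 9.03 and 11.4 CPM in the control samples, 6.08, 6.80, 6.95 and 6.61 CPM in the A1-treated samples and 7.25, 7.41, 6.93 and 7.46 CPM in the A1 + OVA-treated samples. In both genes every treated sample lay below every control sample. Parp9 fell by 37.7% with A1 (log2 fold change -0.68, SE 0.10, edgeR adjusted p = 6.7e-06) and by 32.8% with A1 + OVA (log2 fold change -0.57, SE 0.10, edgeR adjusted p = 4.17e-05). Dtx3l fell by 36.1% with A1 (log2 fold change -0.65, SE 0.10, edgeR adjusted p = 1.07e-05) and by 29.7% with A1 + OVA (log2 fold change -0.51, SE 0.10, edgeR adjusted p = 0.000125). The annotations of these genes overlap over 682 bases on opposite strands, which strand-specific counting keeps apart.

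Parp14 (ENSMUSG00000034422, chr16:35832874-35871544, - strand) was at 5.45, 7.51, 7.67 and 6.21 CPM in the control samples, 2.60, 2.83, 2.90 and 3.70 CPM in the A1-treated samples and 3.77, 4.37, 4.29 and 5.30 CPM in the A1 + OVA-treated samples. The A1-treated samples lay lowest, and the highest A1 + OVA-treated sample was just under the lowest control sample. The gene was lower with A1 (log2 fold change -1.16, SE 0.15, edgeR adjusted p = 8.33e-07) and, by a smaller amount, with A1 + OVA (log2 fold change -0.59, SE 0.13, edgeR adjusted p = 0.00072).

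ISG15 is a ubiquitin-like protein that cells attach to other proteins after interferon. HERC6 is its main ligase in the mouse, and USP18 removes it and damps the receptor. The summed level of the 3 genes was 66.7% of the control mean with A1 and 69.9% with A1 + OVA, with no overlap with the control samples. Herc6, which held most of the counts, was at 5.69, 7.03, 6.25 and 6.08 CPM in the control samples, 3.83, 4.73, 4.66 and 3.85 CPM in the A1-treated samples and 4.13, 4.31, 5.08 and 4.87 CPM in the A1 + OVA-treated samples. Every treated sample lay below every control sample, and Herc6 was lower with A1 (log2 fold change -0.56, SE 0.12, edgeR adjusted p = 0.000361) and with A1 + OVA (log2 fold change -0.44, SE 0.11, edgeR adjusted p = 0.00214).

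Isg15 itself, often the most strongly induced of these genes, was at 0.990, 0.768, 0.804 and 0.690 CPM in the control samples, 0.940, 0.764, 0.305 and 0.218 CPM in the A1-treated samples and 0.362, 0.380, 0.594 and 0.555 CPM in the A1 + OVA-treated samples, which were only 3 to 16 counts a sample. The A1-treated samples were spread over the whole range and overlapped the control samples, whereas the A1 + OVA-treated samples lay below them. Neither comparison passed the test (log2 fold change -0.54, SE 0.35, edgeR adjusted p = 0.187 with A1, and log2 fold change -0.76, SE 0.35, edgeR adjusted p = 0.0677 with A1 + OVA). Usp18 was at 0.743, 0.828, 0.557 and 0.815 CPM in the control samples, 0.723, 0.153, 0.382 and 0.291 CPM in the A1-treated samples and 0.435, 0.697, 0.198 and 0.247 CPM in the A1 + OVA-treated samples, with 2 to 14 counts a sample. Isg15 was called lower with A1 without A1 replicate 1 (log2 fold change -0.93), and with A1 + OVA without A1 replicate 1 or 4 (log2 fold change -0.77). The treated groups of Usp18 overlapped the control group and missed the threshold narrowly in both comparisons (log2 fold change -0.90, SE 0.40, edgeR adjusted p = 0.0549, and log2 fold change -0.89, SE 0.39, edgeR adjusted p = 0.0536). Usp18 passed with A1 without control replicate 3, A1 replicate 1 or A1 + OVA replicate 2 (log2 fold change -1.40 to -0.90), and with A1 + OVA without control replicate 3, A1 replicate 1 or 2 or A1 + OVA replicate 2 (log2 fold change -1.33 to -0.89). However, both Isg15 and Usp18 passed the filter only because of their counts in control samples. Such a filter favours lower values with treatment, which limits what their near-threshold results show.

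Viperin, encoded by Rsad2, makes a nucleotide that stops viral polymerases, and Cmpk2 is the nucleotide kinase gene beside it on chromosome 12. Rsad2 had 6, 4, 1 and 3 counts in the control samples, 1, 2, 3 and 2 in the A1-treated samples and 3, 4, 8 and 6 in the A1 + OVA-treated samples. Cmpk2 had 8, 6, 9 and 11 counts in the control samples, 4, 3, 3 and 0 in the A1-treated samples and 0, 5, 4 and 4 in the A1 + OVA-treated samples. Both failed the filter. The counts of Rsad2 overlapped between groups, and those of Cmpk2 were lower in all treated samples than in any control sample.

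The IFI200 proteins bind DNA in the nucleus and cytosol. Ifi204 was at 98.3, 115, 106 and 106 CPM in the control samples, 112, 110.1, 110.4 and 105 CPM in the A1-treated samples and 88.9, 87.1, 89.1 and 87.3 CPM in the A1 + OVA-treated samples. The samples with A1 alone overlapped the control samples, and those with A1 + OVA lay below both other groups in a narrow range. Ifi204 was thus called only with A1 + OVA (log2 fold change -0.27, edgeR adjusted p = 1.43e-05) and not with A1 (log2 fold change 0.04, edgeR adjusted p = 0.483), and the difference between the treatments was itself past the test, as given with the direct comparison. Of its exonic 100-base stretches, 10.7% occur in Ifi211, Mndal or Ifi207, which belong to the same family.

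Ifi203, a low member of the same family, was at 1.92, 1.89, 2.04 and 2.76 CPM in the control samples, 2.89, 2.83, 2.98 and 2.54 CPM in the A1-treated samples and 2.25, 2.79, 2.64 and 2.84 CPM in the A1 + OVA-treated samples. All treated samples were above 3 of the 4 control samples, and control replicate 4 lay among them. It passed as higher with A1 (log2 fold change 0.38, edgeR adjusted p = 0.0431) and not with A1 + OVA (log2 fold change 0.30, edgeR adjusted p = 0.118). The call with A1 was lost in 6 of the alternative analyses and without control replicate 1, 2 or 3 or A1 replicate 1, 2 or 3 (log2 fold change 0.33 to 0.38), and a call with A1 + OVA was gained without control replicate 4 (log2 fold change 0.43). Ifi203 overlaps Mndal over 22085 bases on the same strand.

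Among the genes for nucleic acid sensors and editors, Eif2ak2 and Adar moved in opposite directions. Eif2ak2 encodes PKR, the kinase that halts translation when it binds double-stranded RNA. It was at 102.1, 121, 111 and 107 CPM in the control samples, 89.6, 91.5, 86.0 and 91.1 CPM in the A1-treated samples and 87.6, 88.8, 84.8 and 87.4 CPM in the A1 + OVA-treated samples. The treated samples lay below the control samples, and the gene was lower with A1 (log2 fold change -0.30, edgeR adjusted p = 9.4e-06) and with A1 + OVA (log2 fold change -0.34, edgeR adjusted p = 1.93e-06).

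Adar encodes the enzyme that edits adenosine to inosine in double-stranded RNA. It was at 16.4, 16.3, 19.2 and 19.4 CPM in the control samples, 19.02, 22.5, 21.1 and 19.5 CPM in the A1-treated samples and 19.9, 21.4, 23.9 and 20.6 CPM in the A1 + OVA-treated samples. The control samples fell into a lower and a higher pair, and the higher pair overlapped the A1-treated samples, but not those with A1 + OVA. Adar was higher with A1 (log2 fold change 0.20, edgeR adjusted p = 0.0333) and with A1 + OVA (log2 fold change 0.27, edgeR adjusted p = 0.00552). The call with A1 was lost with upper-quartile normalization (log2 fold change 0.17) and without control replicate 1 or 2 or A1 replicate 2 or 3 (log2 fold change 0.16 to 0.18). Zbp1, a sensor of Z-form nucleic acid, was scarce, with 0 to 5 counts a sample.

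TRIM25 is a ubiquitin ligase that acts on the RNA sensor RIG-I, and TRIM21 is a cytosolic receptor for antibody-coated virus. Trim25 was at 30.02, 33.4, 34.1 and 34.9 CPM in the control samples, 31.2, 31.8, 32.1 and 30.6 CPM in the A1-treated samples and 35.8, 35.8, 35.3 and 33.8 CPM in the A1 + OVA-treated samples. Both treated groups overlapped the control group, and neither treatment passed the test (approximate 95% interval -0.18 to 0.03 with A1 and -0.02 to 0.19 with A1 + OVA). Trim21 was at 3.65, 3.84, 3.84 and 3.45 CPM in the control samples, 2.17, 2.29, 2.14 and 1.45 CPM in the A1-treated samples and 1.81, 2.22, 2.44 and 1.85 CPM in the A1 + OVA-treated samples. Its treated samples all lay far below the control samples, and it was lower with A1 (log2 fold change -0.88, SE 0.16, edgeR adjusted p = 5.45e-05) and with A1 + OVA (log2 fold change -0.83, SE 0.15, edgeR adjusted p = 7.88e-05).

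Of the 11 remaining genes, 10 passed the filter, 8 of which were lower with A1 and 5 with A1 + OVA, beside 31.1% and 27.9% of all tested genes. None was higher in either. Lgals3bp, a secreted glycoprotein, was at 117, 107, 114 and 119 CPM in the control samples, 83.8, 76.7, 80.5 and 79.9 CPM in the A1-treated samples and 84.6, 88.6, 87.4 and 85.7 CPM in the A1 + OVA-treated samples. Samd9l, which restricts the translation of poxvirus and other RNA, was at 86.3, 106, 89.3 and 89.5 CPM in the control samples, 59.5, 58.0, 61.0 and 57.6 CPM in the A1-treated samples and 59.1, 64.1, 61.9 and 64.0 CPM in the A1 + OVA-treated samples. In both genes every treated sample lay below every control sample. Lgals3bp was lower with A1 (log2 fold change -0.50, SE 0.04, edgeR adjusted p = 9.52e-10) and with A1 + OVA (log2 fold change -0.39, SE 0.04, edgeR adjusted p = 4.19e-08). Samd9l was lower with A1 (log2 fold change -0.65, SE 0.06, edgeR adjusted p = 1.51e-09) and with A1 + OVA (log2 fold change -0.57, SE 0.06, edgeR adjusted p = 1.03e-08).

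Rnf213, a giant ubiquitin ligase that marks intracellular bacteria, was at 35.7, 45.6, 52.3 and 45.4 CPM in the control samples, 32.2, 39.8, 26.7 and 41.1 CPM in the A1-treated samples and 41.8, 34.9, 48.3 and 51.9 CPM in the A1 + OVA-treated samples. The spread within each group was wide and the groups overlapped. It was lower with A1 (log2 fold change -0.36, edgeR adjusted p = 0.0184) and did not pass with A1 + OVA (log2 fold change -0.02, edgeR adjusted p = 0.923). The call with A1 was lost with DESeq2 and without control replicate 3 or A1 replicate 1 or 3 (log2 fold change -0.32 to -0.25).

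Bst2, or tetherin, which holds budding virus at the cell surface, was lower with A1 (log2 fold change -0.53, SE 0.14, edgeR adjusted p = 0.00244) and with A1 + OVA (log2 fold change -0.48, SE 0.13, edgeR adjusted p = 0.00439). Sp100, a protein of nuclear bodies, was lower with A1 (log2 fold change -0.66, SE 0.17, edgeR adjusted p = 0.00211) and with A1 + OVA (log2 fold change -0.62, SE 0.17, edgeR adjusted p = 0.00297), on 25 to 63 counts a sample. Xaf1, a partner of the apoptosis inhibitor XIAP, was lower with A1 (log2 fold change -1.04, SE 0.34, edgeR adjusted p = 0.0121) and not called with A1 + OVA (log2 fold change -0.44, SE 0.30, edgeR adjusted p = 0.234), on 3 to 15 counts. Like Igtp, Xaf1 passed the filter only because of its counts in control samples.

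Smaller decreases were found for Ifi27, a mitochondrial protein, and Ifi35. Ifi27 changed by -0.32 and -0.31 on the log2 scale with A1 and A1 + OVA, past the test in both. The call with A1 was lost without control replicate 1 (log2 fold change -0.19), the highest sample at 13.5 CPM against 9.09 to 10.5 CPM in the other control samples. That with A1 + OVA was lost without control replicate 1 or A1 + OVA replicate 1 or 2 (log2 fold change -0.27 to -0.18). Ifi35 changed by -0.27 with A1, past the test, and by -0.13 with A1 + OVA, which did not pass. Rtp4 and the torsin gene Tor3a passed in neither comparison, with log2 fold changes between 0.08 and 0.12, although Tor3a passed with A1 + OVA without A1 + OVA replicate 4 (log2 fold change 0.17). Ifi44 was scarce, with 1 to 9 counts.

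Between A1 + OVA and A1 alone, few of these genes differed past the test: Ifit2, Gbp2 and Parp14 were higher with A1 + OVA and Ifi204 was lower. As the labels also name insulin in the medium of the A1 + OVA group, OVA and insulin cannot be told apart here. Tested directly, with no control sample in the contrast, 3 of the 32 were higher with A1 + OVA than with A1, 1 was lower and 28 passed in neither direction. Of all tested genes, 6.05% were higher and 6.81% were lower. The median log2 difference of the 32 was 0.09, against 0.01 for all tested genes, and without the 5 genes that needed the control samples to pass the filter the counts were again 3 higher and 1 lower.

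Ifit2 was higher with A1 + OVA (log2 fold change 0.36, SE 0.07, edgeR adjusted p = 0.00115), as were Gbp2 (log2 fold change 0.48, SE 0.13, edgeR adjusted p = 0.0199) and Parp14 (log2 fold change 0.56, SE 0.16, edgeR adjusted p = 0.0259). Of the genes that passed the test, Parp14 alone had a log2 difference of 0.5 or more in size, and it was higher. Of all tested genes, 0.769% met both conditions higher and 0.433% lower. The call of Gbp2 was lost with DESeq2 and without A1 replicate 2 or 4 or A1 + OVA replicate 4 (log2 fold change 0.42 to 0.44), and that of Parp14 without A1 replicate 1, 2 or 3 or A1 + OVA replicate 4 (log2 fold change 0.46 to 0.54). The call of Ifit2 held without any 1 of the 12 samples. Ifit1 showed a difference of the same size as Gbp2 and just missed the threshold (log2 fold change 0.48, SE 0.16, edgeR adjusted p = 0.0518), and it passed without control replicate 1 or 2 or A1 + OVA replicate 3 (log2 fold change 0.48 to 0.54). Ifi204 was the gene that was lower (log2 fold change -0.31, SE 0.04, edgeR adjusted p = 7.37e-05). In 7 genes (Ifit1, Ifit2, Gbp2, Parp14, Trim25, Ifi35 and Lgals3bp) the A1 + OVA-treated samples lay above all A1-treated samples, as in 8.56% of all tested genes, and in Ifi204 they lay below them, as in 9.58%.

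**Figure D5:**
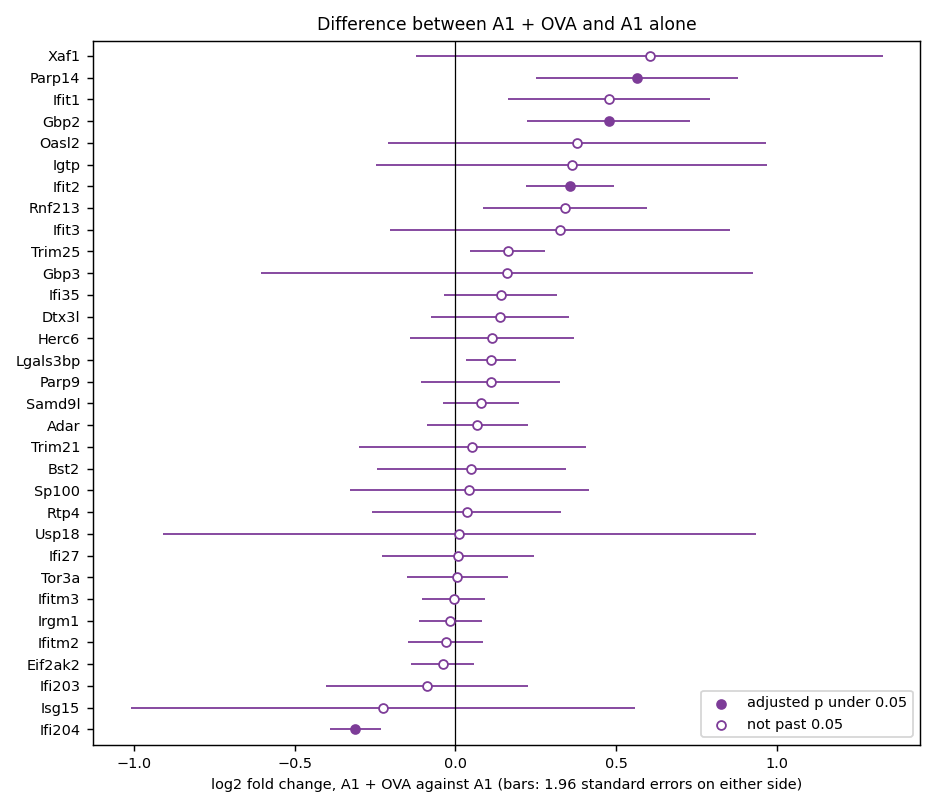
Log2 difference between A1 + OVA-treated and A1-treated MSCs for the 32 tested genes, in order of size, with approximate 95% intervals of the fit. Filled points have an adjusted p under 0.05. Parp14, Gbp2 and Ifit2 are filled to the right of 0 and Ifi204 to the left, while most others lie near 0.

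Counted together, 15 genes were lower than control in both treatments with no call between the treatments, and 2 (Gbp2 and Parp14) were lower in both and higher with A1 + OVA than with A1. Ifit2 was lower with A1 only and higher with A1 + OVA than with A1. Another 4 (Oasl2, Ifi35, Xaf1 and Rnf213) were called lower with A1 and not with A1 + OVA, but in these the difference between treatments did not pass the test. Irgm1 and Adar were higher in both, and 6 genes passed in none of the 3 comparisons. Taken singly, 31.1% of all tested genes were lower and 31.7% higher with A1, and 27.9% and 29.7% with A1 + OVA. Between the treatments, 12.9% were called. The shares of all tested genes in these joint classes were not computed, and both comparisons with control share the same samples, so these counts are a description only.

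The upstream genes of the pathway were examined in the same fit as a list of 36, of which 22 passed the filter. None of the 11 interferon genes did. All were at 0 in every sample except Ifnb1, with a highest count of 1, so that interferon transcripts were not detectable at this depth. With A1, 13 of the 22 were lower and 7 were higher, and with A1 + OVA 9 were lower and 7 were higher. The direct comparison gave 2 lower and 1 higher. Among all tested genes, 31.1% were lower and 31.7% higher with A1, 27.9% and 29.7% with A1 + OVA, and 6.81% and 6.05% in the direct comparison, so the counts of higher genes were near the share of all genes. The median log2 fold changes of the 22 were -0.20 and -0.14 against control. This list includes Usp18, which is also 1 of the 45 genes.

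Of the 5 receptor genes tested, 4 were lower and 1 was higher with A1, and 1 was lower and 1 higher with A1 + OVA, where 31.1% and 27.9% of all tested genes were lower. Ifngr1, the binding chain of the interferon gamma receptor, was lower with A1 (log2 fold change -0.74, edgeR adjusted p = 2.81e-13), and Ifngr2, its signalling chain, was higher (log2 fold change 0.60, edgeR adjusted p = 1.54e-10). Of the 7 signal transducer genes, 5 were lower with A1 and 2 were higher, Tyk2 and Stat3, beside 31.1% and 31.7% of all tested genes. Stat2 fell by 0.79 on the log2 scale with A1 (edgeR adjusted p = 5.93e-07) and by 0.39 with A1 + OVA (edgeR adjusted p = 0.00113), and was the gene of this list that was higher with A1 + OVA than with A1 (log2 difference 0.39, edgeR adjusted p = 0.0149). Irf9, the partner of STAT2 at the ISRE, was lower with A1 (log2 fold change -0.39, edgeR adjusted p = 0.00331) and not called with A1 + OVA (edgeR adjusted p = 0.145). The factor gene Irf7, on 4 to 29 counts, was lower by the same amount in both (log2 fold change -1.33, edgeR adjusted p = 0.000532 and 0.000408). Of the 6 genes for brakes on the pathway, 1 was lower and 3 were higher with A1, again beside 31.1% and 31.7% of all tested genes.

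A second list held 41 relatives of these families, of which 11 passed the filter. With A1, 7 of the 11 were lower and 4 were higher. With A1 + OVA, 7 were lower and 2 were higher. The direct comparison of A1 + OVA with A1 gave 1 lower and 2 higher. The lower one was Ifi211 (log2 fold change -0.30, edgeR adjusted p = 0.000713), of the same family as Ifi204, which was also lower there. The shares of all tested genes were 31.1% lower and 31.7% higher with A1, 27.9% and 29.7% with A1 + OVA, and 6.81% and 6.05% in the direct comparison. In the chain that attaches ISG15, both the activating enzyme gene Uba7 (log2 fold change -1.65, edgeR adjusted p = 1.69e-06) and the conjugating enzyme gene Ube2l6 (log2 fold change -0.85, edgeR adjusted p = 4.7e-08) were lower with A1, as was their ligase Herc6. The 4 relatives that were higher with A1 were an IRG gene, Ifi47, and 3 IFI200 genes, Ifi207, Ifi211 and Mndal. Ifi47 had the largest change of the list (log2 fold change 2.35, edgeR adjusted p = 3.95e-09, on 9 to 57 counts). Thus, among IRG genes, Irgm1 and Ifi47 were higher and Igtp and Irgm2 lower in both treatments. However, Igtp passed the filter only because of its counts in control samples. Ifi47 fell to 9 counts in control samples, under the filter's minimum count of 10, so it needed its counts in treated samples to pass. Igtp and Irgm2 also overlap on the same strand, so they are not fully separate cases.

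The 25 tested genes with a promoter window were finally divided by the ISRE core. Over all tested genes, 31.1% were lower and 31.7% higher with A1, and 27.9% and 29.7% with A1 + OVA. With the core in the window, 9 of 13 were lower and 2 were higher with A1, and the median on the log2 scale was -0.53. Without it, 10 of 12 were lower and 1 was higher, with the same median of -0.53. For A1 + OVA, 9 of 13 were lower with the core and 5 of 12 without it, with medians of -0.48 and -0.42, and 1 gene was higher in each. Divided by the GAS core, 6 of 7 genes with it and 13 of 18 without it were lower with A1, with medians of -0.27 and -0.60. With A1 + OVA, 4 of 7 and 10 of 18 were lower, with medians of -0.16 and -0.47. Irgm1, which was higher, and Igtp, which had the lowest log2 fold change, each hold a core within the 34 bases before the RefSeq start. Igtp passed the filter only because of its counts in control samples. Parp9 and Parp14 are among the 12 genes with no window. These values describe the windows, and no test was made of these differences.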

How the data were processed

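RNA-seq was analysed from 12 samples, 4 each of control, A1-treated and A1 + OVA-treated MSCs. The authors sequenced stranded poly(A) libraries, aligned the reads to GRCm38 and deposited raw counts per Ensembl gene. The submitters' processing notes name bcl2fastq 2.20, STAR 2.7 and featureCounts 2.0. Multimapping reads and overlapping genes limit counts of near-identical genes. Totals were 13702348 to 16881995 counts, of which 97.68% to 98.53% were in protein-coding genes.

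Members were matched by Ensembl identifier through the GENCODE M21 annotation, which also gave coordinates and exon lengths. Members, gene lists and tests were chosen with earlier results of these data known. Named genes were the measured members of the IFIT, OAS, IFITM, GBP/IRG and PARP groups and other members past an adjusted p of 0.05 and a log2 change of 0.5 in size. Per-sample values were given for the most abundant members of a family and those called higher, and every other member is named with its counts or status. Non-members are named as examples seen after their values were known, and 1 pathway gene is not reported here. Genes with enough counts by filterByExpr (minimum count 10) were normalized by TMM and tested in 1 fit over 12 samples with edgeR 4.0.16 (R 4.3.3), with 11314 genes adjusted together by Benjamini-Hochberg. The SE is the size of the log2 fold change divided by the square root of its F. The study's tool, DESeq2 (version 1.42.0 here), was an alternative, with other normalizations, filters, gene sets, samples and a replicate block. Tests were tested on simulated data. Replicates of a group differed by 1.92 to 6.87 times the sampling noise over 18 pairs, so none was counted as a repeat. Intervals cover the spread between these samples. They use this SE with a normal approximation, so they are approximate and can be slightly narrower than the edgeR test allows.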

Additional observations from a re-analysis of the deposited data

Results flagged for a closer look

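Over 96 groups of 4 samples, from the 32 tested genes in 3 groups, 3 held a sample far from the others, where chance alone gives about 1 in 20. Oasl2 in A1 replicate 3 was at 0.458 CPM, against 0.799 to 0.868 CPM in the other A1-treated samples. Oasl2 in A1 + OVA replicate 4 was at 0.493 CPM, against 1.09 to 1.19 CPM in the other samples of its group. Both rest on few counts, since Oasl2 had 6 to 25 counts a sample. Samd9l in control replicate 2 was at 106.2 CPM, against 86.3 to 89.5 CPM in the other control samples, and the gene stayed lower in both treatments without that sample. The cause of these values was not tested.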

How the results depend on the processing

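Every direction that was called was kept under the alternatives run. With upper-quartile normalization, 1 gene (Irgm1) was higher with A1 and 5 were higher in the direct comparison of A1 + OVA with A1, and the median of all genes moved by -0.03 on the log2 scale for A1. With a log2 change of 0.5 or more in size required, 0 genes were higher with A1 and 0 with A1 + OVA, 10 were lower with A1 + OVA, and the direct comparison gave 1 higher and 0 lower. With at least 10 counts in every sample, 26 genes were tested and the median was -0.34 with A1 and -0.33 with A1 + OVA, a filter that removes genes that fell to few counts. With a mean of at least 10 counts, chosen after seeing the data, 28 genes were tested, with 21 lower and 3 higher with A1 and 18 lower and 2 higher with A1 + OVA. The medians under that filter were -0.43 with A1 and -0.37 with A1 + OVA, beside -0.52 and -0.42 in the main fit, so their size depends on the filter. DESeq2 called 20 lower and 2 higher with A1, 18 lower and 2 higher with A1 + OVA, and 1 lower and 2 higher in the direct comparison. Without a filter, 44 genes were tested, and the scarce genes Gbp7, Cmpk2 and Ifit3b were also lower with A1.

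Leaving out 1 sample at a time gave 20 to 25 lower and 1 to 3 higher with A1, 16 to 21 lower and 2 to 4 higher with A1 + OVA, and 1 lower and 1 to 5 higher in the direct comparison. The single gene higher with A1 was Irgm1, without control replicate 1 or 2 or A1 replicate 2 or 3. The single gene higher in the direct comparison was Ifit2, without A1 replicate 2 or A1 + OVA replicate 4. The medians were -0.60 to -0.49, -0.48 to -0.39 and 0.06 to 0.14. Omitting 1 sample let Ifit3b pass the filter in 9 cases. Samples that share a replicate number did not deviate together (12 pairs, correlation -0.132 to 0.156), so the number was not taken as a pairing. A fit with the number as a replicate block gave 22 lower and 2 higher with A1, 18 and 2 with A1 + OVA, and 1 and 3 in the direct comparison, with medians of -0.52, -0.41 and 0.09, and it lost the call of Ifi203 with A1. Depth limits the 13 genes that failed the filter and those with few counts.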
